A study of Mus musculus with 3 samples.

Results

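Chemosensory receptor genes were examined as a baseline for closed chromatin in hematopoietic stem cells (HSCs). They were all protein-coding genes of GENCODE vM21 on chromosomes 1 to 19 whose symbol starts with *Olfr* (odorant receptors), *Vmn1r* or *Vmn2r* (vomeronasal receptors). The rule gave 1457 of 20807 protein-coding genes, with 1128 *Olfr*, 208 *Vmn1r* and 121 *Vmn2r* genes. The symbols *Vmn1r216* and *Olfr290* stand on 2 gene records each. Runs of at least 5 such genes with gaps of at most 500 kb formed 45 clusters on 16 chromosomes, which held 1408 of the genes and 54.5 Mb. The other 49 genes lay outside clusters.

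The cells came from 1 preparation of LSK CD150+CD48−CD34− bone marrow cells of wild-type C57BL/6 mice (C57BL/6J in the methods of the study), female and aged 8 weeks, after enrichment for c-Kit with magnetic beads. Nothing read here says how many mice were pooled. Open chromatin was read by DOGMA-seq, a droplet method that measures chromatin, RNA and antibody tags in the same cells. There was 1 ATAC library, so no value has a replicate, no test between conditions was possible, and intervals are exact 95% intervals for counting error only. The values speak of chromatin and not of transcripts, since RNA levels were not analysed here.

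Odorant receptors sit in the cilia of olfactory sensory neurons, and vomeronasal receptors in the neurons of the vomeronasal organ. Each mature olfactory neuron expresses 1 odorant receptor gene, from 1 allele, while the rest of the family is packed in heterochromatin. Neurons with *Vmn2r* receptors can express more than 1 of them. In neurons, the transcription factors Lhx2, Ebf and Ldb1 hold together distant enhancers that contact the chosen odorant receptor gene. In other tissues most of these genes are regarded as silent, and many receptor promoters carry few CpG dinucleotides. Their arrays arose by gene duplication, so near-identical copies are common and short reads from them often cannot be placed.

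Because the openness of a gene start can go with its sequence, promoters of the 3 receptor genes with the most fragments and of 1 closed gene of each family are shown first. The closed genes were those with the fewest fragments among windows with at least 90% unique bases, with ties settled by symbol. Each promoter runs 5′ to 3′ from 250 bases before to 50 bases after the gene start, in GRCm38, the genome to which mm10 coordinates belong. Capitals mark matches on either strand to 6 short motifs. The Ebf or O/E site was searched as TCCCNNGGG. The core bound by Lhx2 and other homeodomain factors was searched as TAATTA. The TATA box motif was spelled TATAAA, and for factors of the ETS family the letters were CCGGAAG. Sites of RUNX factors, which act in blood cells, were read as TGTGGT. For the GATA factors, which also act in blood cells, the search string was AGATAA.
Vmn1r4, chr6:56923765-56924064, plus strand: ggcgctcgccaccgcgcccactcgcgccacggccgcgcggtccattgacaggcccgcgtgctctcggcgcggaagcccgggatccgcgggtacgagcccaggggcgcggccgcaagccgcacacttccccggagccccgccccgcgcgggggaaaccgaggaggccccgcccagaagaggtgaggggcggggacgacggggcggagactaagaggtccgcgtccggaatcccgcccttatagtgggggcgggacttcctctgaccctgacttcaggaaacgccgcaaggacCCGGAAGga
Olfr646, chr7:104104623-104104922, plus strand: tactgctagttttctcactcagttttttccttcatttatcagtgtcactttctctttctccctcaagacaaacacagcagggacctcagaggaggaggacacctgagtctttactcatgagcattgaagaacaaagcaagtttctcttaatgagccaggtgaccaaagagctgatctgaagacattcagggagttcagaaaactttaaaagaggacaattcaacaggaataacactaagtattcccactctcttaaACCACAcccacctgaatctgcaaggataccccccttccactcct
Olfr658, chr7:104647256-104647555, minus strand: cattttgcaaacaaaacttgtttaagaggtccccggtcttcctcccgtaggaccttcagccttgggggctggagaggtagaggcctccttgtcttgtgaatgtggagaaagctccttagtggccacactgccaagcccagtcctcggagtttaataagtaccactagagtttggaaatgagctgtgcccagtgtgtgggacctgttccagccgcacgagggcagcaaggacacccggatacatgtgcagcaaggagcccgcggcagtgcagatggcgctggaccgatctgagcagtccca
Olfr1, chr11:73399565-73399864, minus strand: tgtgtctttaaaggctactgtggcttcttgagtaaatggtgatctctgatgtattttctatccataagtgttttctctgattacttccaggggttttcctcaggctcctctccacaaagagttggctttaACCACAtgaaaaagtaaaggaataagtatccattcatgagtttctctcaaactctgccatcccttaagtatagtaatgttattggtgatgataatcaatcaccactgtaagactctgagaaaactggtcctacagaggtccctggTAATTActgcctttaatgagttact
Vmn1r11, chr6:57133205-57133504, plus strand: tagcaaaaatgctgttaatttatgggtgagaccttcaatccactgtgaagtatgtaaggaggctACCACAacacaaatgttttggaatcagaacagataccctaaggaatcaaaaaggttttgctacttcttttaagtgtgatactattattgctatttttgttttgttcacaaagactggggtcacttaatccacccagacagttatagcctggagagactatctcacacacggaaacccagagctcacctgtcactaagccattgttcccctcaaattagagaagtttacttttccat
Vmn2r101, chr17:19576977-19577276, plus strand: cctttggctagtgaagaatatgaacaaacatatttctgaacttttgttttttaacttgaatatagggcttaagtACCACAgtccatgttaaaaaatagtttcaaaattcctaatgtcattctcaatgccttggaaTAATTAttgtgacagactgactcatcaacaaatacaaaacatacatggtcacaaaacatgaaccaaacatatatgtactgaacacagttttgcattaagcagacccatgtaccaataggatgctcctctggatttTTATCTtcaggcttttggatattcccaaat
The first 3 are the open genes and the last 3 the closed ones. The *Vmn1r4* promoter had 73.7% GC and 42 CpG dinucleotides, and its single match was an ETS motif whose first base is 42 bases after the start. The *Olfr646* promoter had 43.0% GC, no CpG and 1 RUNX match. The *Olfr658* promoter had 56.0% GC, 10 CpG and no match to any of the 6 motifs. The closed *Olfr1*, *Vmn1r11* and *Vmn2r101* promoters had between 33.3% and 39.0% GC and 0 or 1 CpG. A match is a string of letters and not a bound site.

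Over all 1457 receptor promoters, the median GC content was 37.7% and the median number of CpG dinucleotides was 1. Among them, 504 (34.6%) had no CpG at all, against 564 of 19345 other promoters (2.92%). The observed over expected CpG ratio exceeded 0.6 in 1 receptor promoter (0.0686%), that of *Vmn1r4*, and in 9458 other promoters (48.9%). The TATA motif stood in 32.3% of receptor promoters and in 12.7% of all 20802 promoters with known bases. The homeodomain motif stood in 23.4% and 5.21%, the GATA motif in 24.0% and 9.94%, the Ebf motif in 10.1% and 7.94%, the RUNX motif in 16.2% and 15.4%, and the ETS motif in 0.343% and 11.03%. The shares were not adjusted for base composition, and the TATA, homeodomain and GATA motifs are built mainly of A and T.

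Among the families, the Ebf motif was held by 19.01% of *Vmn2r*, 10.8% of *Olfr* and 0.962% of *Vmn1r* promoters. The 5 receptor genes with an open start, described below, had GC contents between 43.0% and 73.7%, and none of them held the TATA, homeodomain, GATA or Ebf motif.

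The analysis used the 3108 barcodes called as cells with more than 3000 fragments in peaks, out of 3757 called cells. They held 36439576 fragments on chromosomes 1 to 19, with a median of 11457 fragments per cell in all (range 3977 to 194399). The mean was 15.2 fragments per kb, or 30.4 in a window of 1 kb either side of a gene start. A window was called open at 4 times this mean or more, which took 122 fragments. Of 12 HSC marker starts 10 were open, beside 61.1% of all protein-coding starts, so the count alone does not identify the cells. The highest were *Hlf* (1811 fragments), *Kit* (1529) and *Meis1* (1335), while *Ly6a* (50) and *Mecom* (10) were not open. Among markers of other blood cells, the start of *Cd34* was open with 240 fragments, while *Cd3e* and *Ms4a1* had 10 fragments each. The share of these cells in the results was not tested.

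Receptor gene starts were closed. The median receptor gene had 1 fragment in its window over all 3108 cells, 0.0329 of the autosomal mean, against a median of 406 fragments and 13.4 times the mean for the other 19350 genes. No fragment was found at 359 receptor gene starts. Where reads can be placed, a count of 0 allows up to 3 fragments (a one-sided limit), or 0.0986 of the mean, but 82 of the 359 windows had under 50% unique bases (defined below), where it sets no such limit. A window at or below the mean was found for 1446 of 1457 receptor genes (99.2%), whereas 29.7% of all protein-coding genes had one. Only 5 receptor genes (0.343%) had an open window, against 61.1% of all protein-coding genes. These 5 genes and the 1446 closed ones leave 6 genes between the mean and 4 times the mean.

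Most genes of each family held a few fragments at most. *Olfr* genes had a median of 2 fragments (middle 50% of genes, 1 to 3), and 232 of 1128 had none. *Vmn1r* genes had a median of 1 fragment, with none at 78 of 208, and *Vmn2r* genes also had a median of 1, with none at 49 of 121. All 121 *Vmn2r* starts were at or below the mean, and the highest held 7 fragments. The 49 genes outside clusters had a median of 3 fragments and a highest value of 32, at *Olfr15*.

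**Figure D1:**
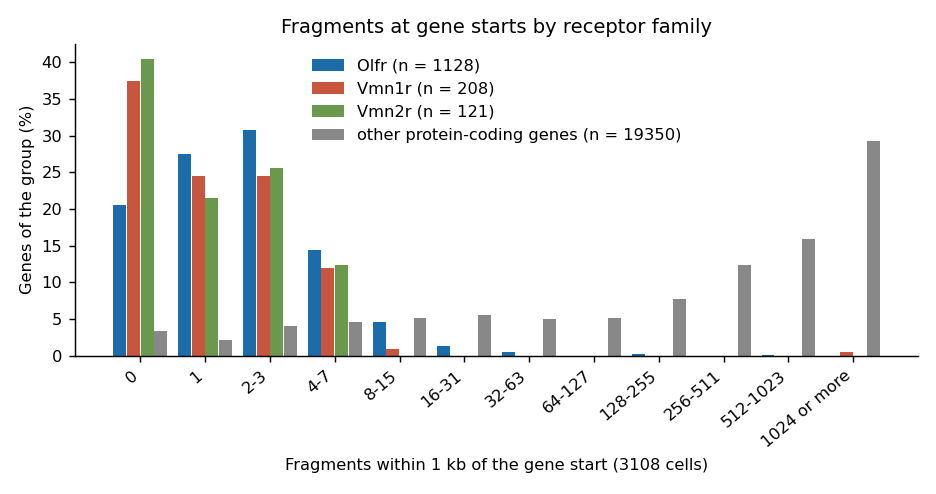
Share of genes (y axis, %) by the number of fragments within 1 kb of the gene start in 3108 cells (x axis, classes that double in width) for *Olfr*, *Vmn1r*, *Vmn2r* and other protein-coding genes. Receptor genes pile up at 0 to 3 fragments, while 29.3% of the other genes fell in the highest class.

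Part of the low count goes with repeated sequence. A base was counted as unique when the 50-mer that starts there occurs once in the genome. Median uniqueness of the window was 98.5% for *Olfr*, 88.4% for *Vmn1r* and 88.1% for *Vmn2r* genes. The 76 genes with under 25% unique bases had a median of 0 fragments, and 69 of them had none. The 1067 genes with at least 90% had a median of 2 fragments, 0.0658 of the mean, and 1058 of these windows were at or below the mean. Counted per unique base, the median over receptor genes was 0.0588 of the mean. Windows of other chemosensory and tissue-restricted families were also low, with medians of 4 fragments for 15 *Taar* genes (trace amine receptors), 2 for 35 *Tas2r* genes (bitter taste receptors), 2 for 57 *Krtap* genes (hair keratin-associated proteins) and 4 for 42 *Defb* genes (defensins). None of these 4 families had an open window.

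Around the starts of the receptor genes that were not open, the level stayed below the mean and was lower than from 1850 to 1150 bp upstream. These genes were chosen for a low count in the same window, which limits any peak there. In steps of 100 bp, the 1452 genes that were not open held between 136 and 209 fragments per step within 500 bp of the start. The step just upstream of the start held 198 fragments, 0.0897 of the mean (0.0776 to 0.103), and the step 350 bp downstream held 151 (0.0684). The 6 steps from 350 bp upstream to 150 bp downstream held 185 to 209 fragments each, and the 4 steps from 750 to 450 bp upstream 136 to 165. At other protein-coding genes the step just upstream of the start stood at 99.4 times the mean. The steps from 1850 to 1150 bp upstream held 227 to 417 fragments each, and those from 1350 to 1950 bp downstream 184 to 280. The highest step of these 1452 genes lay 1450 bp upstream, at 0.189 of the mean.

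**Figure D2:**
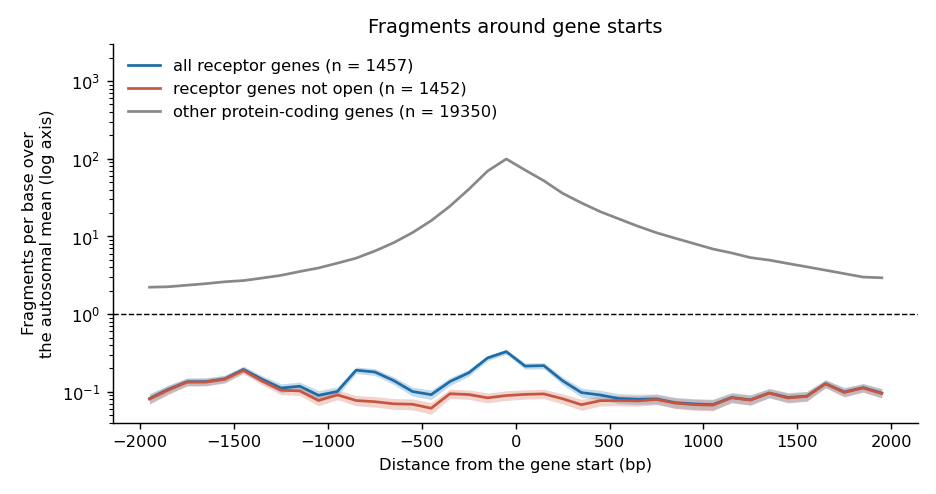
Fragments per base over the autosomal mean (y axis, log scale) by distance from the gene start (x axis, bp, steps of 100 bp) for all 1457 receptor genes, the 1452 that were not open and 19350 other genes, with bands for the exact 95% interval. The line of receptor genes that were not open stays between 0.0616 and 0.0946 within 500 bp of the start, and the rise in the line of all receptor genes comes from the 5 open ones.

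The 5 open starts were those of *Vmn1r4*, *Olfr646*, *Olfr658*, *Olfr552* and *Olfr433*. *Vmn1r4* held 1406 fragments, 46.2 times the mean (43.8 to 48.7), in 1001 of 3108 cells (32.2%). *Olfr646* held 796 fragments, 26.2 times the mean (24.4 to 28.1), in 620 cells (19.9%). *Olfr658* held 251 (8.25 times, 7.26 to 9.34), *Olfr552* 234 (7.69 times, 6.74 to 8.74) and *Olfr433* 144 (4.73 times, 3.99 to 5.57). The intervals of *Olfr658* and *Olfr552* overlap, and the other neighbors in this order do not. The next genes were *Olfr557* with 57 fragments, *Olfr1033* with 49 and *Olfr556* with 47, all under 2 times the mean. The interval of *Olfr433* reaches just below the threshold of 4 times, so its call is the least firm of the 5.

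*Vmn1r4* shares its start region with another gene. Its start on the plus strand of chromosome 6 lies 83 bp from that of *Nt5c3*, a pyrimidine nucleotidase gene on the minus strand. The densest 100 bp, chr6:56923915-56924014, held 404 fragments. Only part of this stretch overlaps an annotated exon of *Nt5c3*, because the start of *Nt5c3* lies within it. Fragments there cannot be assigned to 1 of the 2 genes. The coding sequence of *Vmn1r4* begins 32498 bp downstream of its gene start, and the window there held 3 fragments.

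The open window of *Olfr646* lay upstream of the gene. Of its 796 fragments, 775 were before the start, and the densest 100 bp, chr7:104103973-104104072, held 244. That position is in an intron of *Olfr643*, whose record of the opposite strand spans it. The nearest other protein-coding start, that of *Ubqln5*, was 24953 bp away. The 300 bases around this maximum were chosen after the profile was seen and read as follows.
Olfr646 upstream stretch, chr7:104103873-104104172, plus strand: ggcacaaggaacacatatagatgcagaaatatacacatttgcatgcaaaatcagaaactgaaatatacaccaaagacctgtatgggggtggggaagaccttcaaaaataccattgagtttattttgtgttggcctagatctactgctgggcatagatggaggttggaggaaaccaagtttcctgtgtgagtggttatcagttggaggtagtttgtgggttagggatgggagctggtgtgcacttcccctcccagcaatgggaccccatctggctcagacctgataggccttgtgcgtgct
This stretch had 47.0% GC, 1 CpG and no match to the 6 motifs.

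*Olfr658* and *Olfr552* had their densest 100 bp just before the start. For *Olfr658* it was chr7:104647306-104647405 with 92 fragments, and for *Olfr552* chr7:102597570-102597669 with 76, both outside any annotated gene. *Olfr658* had 83.8% unique bases in its window, and the nearest other protein-coding start, that of *Usp17le*, was 130165 bp away. *Olfr552* had 97% unique bases, and *Trim21* began 32284 bp away. The maximum of *Olfr433*, with 51 fragments, was 250 bp after the start, in its own noncoding exon at chr1:174040905-174041004, and the interferon-inducible gene *Ifi205* began 8895 bp away.

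Where the coding sequence begins, 4 of these 5 genes were at or below the mean. The coding start lay a median of 2724 bp from the gene start in receptor genes. At that point *Olfr646* had 24 fragments, *Vmn1r4* and *Olfr658* 3 each and *Olfr552* 2, whereas *Olfr433* had 100 (3.29 times the mean). The coding start of *Olfr433* is 1247 bp from its gene start, so both windows overlap and share fragments, as they do for *Olfr646* and *Olfr658*. Only *Olfr1509* and *Olfr1511*, both in cluster 38 on chromosome 14, had an open coding start, with 270 and 228 fragments, beside 47.9% of all protein-coding genes. Their gene starts held 4 and 6 fragments. With the highest window over all annotated transcript starts, 9 receptor genes were open, beside 65.5% of all protein-coding genes. The additional ones were *Olfr1509*, *Olfr1511*, *Olfr94* (222 fragments) and *Olfr56* (197). These counts at other starts were made after the values at gene starts were seen.

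The genes were also grouped by the distance to the nearest other protein-coding start. Of 3 receptor genes with another protein-coding start under 2 kb away, 1 was open. Of 21 with one at 2 to 10 kb, 1 was open and the median was 5 fragments. Of 263 genes at 10 to 50 kb, 2 were open and the median was 2, and of 609 at 50 to 200 kb, 1 was open and the median was 1. Of 561 genes at least 200 kb from such a start, none was open and the median was 1 fragment. The remaining members of the highest 15 by count were *Olfr156* (33 fragments), *Olfr15* (32), *Olfr417* (31), *Olfr464* (28), *Olfr1378* and *Olfr543* (26 each) and *Olfr516* (25), all within 1.09 times the mean. The window of *Olfr1033*, with 49 fragments, was 19.1% unique.

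Of the odorant receptors studied outside the nose, 10 were examined, and their gene starts were at or below the mean, as were 99.1% of all *Olfr* starts. *Olfr78* and *Olfr558*, which are found in vascular and renal cells, had 1 and 10 fragments. *Olfr544* had 20, the highest of 10 such genes, or 0.658 of the mean (0.402 to 1.02). *Olfr56* and *Olfr920* had 7 each, *Olfr16*, studied in sperm and muscle, and *Olfr1393*, studied in the kidney, 3 each, *Olfr2* and *Olfr110* 2 each, and *Olfr111* 1. The gene-start window of *Olfr56* was only 8.15% unique, and another annotated transcript start of it, 108163 bp away, was open with 197 fragments (6.48 times the mean).

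Genes of the olfactory pathway were not uniformly closed. Among 20 of them, 12 had an open start, beside 61.1% of all protein-coding genes. The widely used subunit gene *Gnai2* (1642 fragments) and the cofactor *Ldb1* (1454) stood highest, followed by the transcription factors *Ebf3* (895) and *Ebf4* (450). *Lhx2* held 365 fragments and *Ebf1* 285. The transduction genes split, with *Adcy3* (395), *Gnal* (227) and *Gng13* (126) open and *Omp* (57) and *Stoml3* (34) between the mean and 4 times the mean. *Cngb1* (25), *Cnga4* (23), *Trpc2* (18), *Ano2* (17), *Rtp1* (6) and *Rtp2* (4) were at or below it. Of the 5 markers of olfactory sensory neurons, 2 were open, *Gnal* and *Gng13*.

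The clusters as a whole were sparse per kb. They held 274361 fragments, 5.03 per kb or 0.331 of the autosomal mean (0.330 to 0.332). They took up 2.28% of autosomal bases and 0.753% of fragments. The 500 kb on either side held 1.73 times the mean, so the clusters had 0.191 times the density of their flanks. Most of the cluster fragments belonged to other genes: 277 other protein-coding genes overlapped the clusters, and other genes of any kind except pseudogenes, with 5 kb around them, covered 8.26 Mb but held 189198 fragments. Without these, 85163 fragments remained in 46.3 Mb, 0.121 of the mean (0.120 to 0.122) and 0.0698 times the flanks. The mean of 15.2 per kb is raised by open sites and lies far above the typical stretch. In bins of 1 kb, the median was 2 fragments over all autosomes and 1 inside clusters. No fragment was found in 25.4% and 47.9% of these bins, and 89.4% and 72.8% of their bases were unique. The start windows of receptor genes in clusters, the open ones included, together stood at 0.143 of the mean. Gene bodies of receptors beyond these windows had 0.103 of the mean and the stretches between genes 0.132.

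Individual clusters ranged from 0.0120 to 2.89 times the autosomal mean. With their intervals, 40 of 45 lay below the autosomal mean, and 38 were less dense than their flanks. How many autosomal regions of like size lie as low was not counted, and the median autosomal bin of 1 kb also lay below the mean. The median cluster stood at 0.143 of the mean, and 19 were under 0.1. The largest, cluster 5 on chromosome 2 (chr2:85330779-90403897), has 227 *Olfr* genes and 7 other protein-coding genes, and stood at 0.0571 of the mean (0.0554 to 0.0588).

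The 5 densest clusters each held genes that many cell types use. Cluster 38 on chromosome 14 (8 *Olfr* genes) stood at 2.89 times the mean and includes *Hnrnpc*, an RNA-binding protein, and *Supt16* and *Chd8*, chromatin factors. Cluster 32 on chromosome 11 (19 *Olfr* genes, 1.41 times) includes *Mgat1*, a glycosyltransferase, and the interferon-induced GTPase genes *Tgtp1*, *Tgtp2* and *Ifi47*. Cluster 36 on chromosome 13 (49 genes, 1.21 times) surrounds part of the *Hist1* histone array. Cluster 37 on chromosome 14 (30 genes, 1.13 times) holds *Parp2*, *Apex1*, *Pnp* and ribonuclease genes, and cluster 20 on chromosome 7 (22 genes, 1.05 times) holds *Trim28*, a corepressor, and *Ube2m*. Without other genes and 5 kb around them these 5 clusters stood at 0.574, 0.215, 0.649, 0.4998 and 0.0780 of the mean, and none of the 45 was above it.

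The 5 least dense clusters were 21, 19 and 23 on chromosome 7, 35 on chromosome 11 and 40 on chromosome 16. Clusters 7 and 10 tied with cluster 40 at 0.0559 of the mean. Cluster 21, with 65 *Vmn1r* genes, stood at 0.0120 of the mean (0.0112 to 0.0129), but only 17.6% of its bases were unique. Per unique base it stood at 0.0612 of the mean. Clusters 19, 23, 35 and 40 stood at 0.0454, 0.0480, 0.0504 and 0.0559, and at 0.0650, 0.0509, 0.0566 and 0.0662 per unique base. In this order the interval of each of these 4 clusters overlaps that of the next, while that of cluster 21 overlaps none of them. Cluster 18, a *Vmn2r* array on chromosome 7 with 13.4% unique bases, was lowest without other genes at 0.00528, and stood at 0.0411 per unique base.

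**Figure D3:**
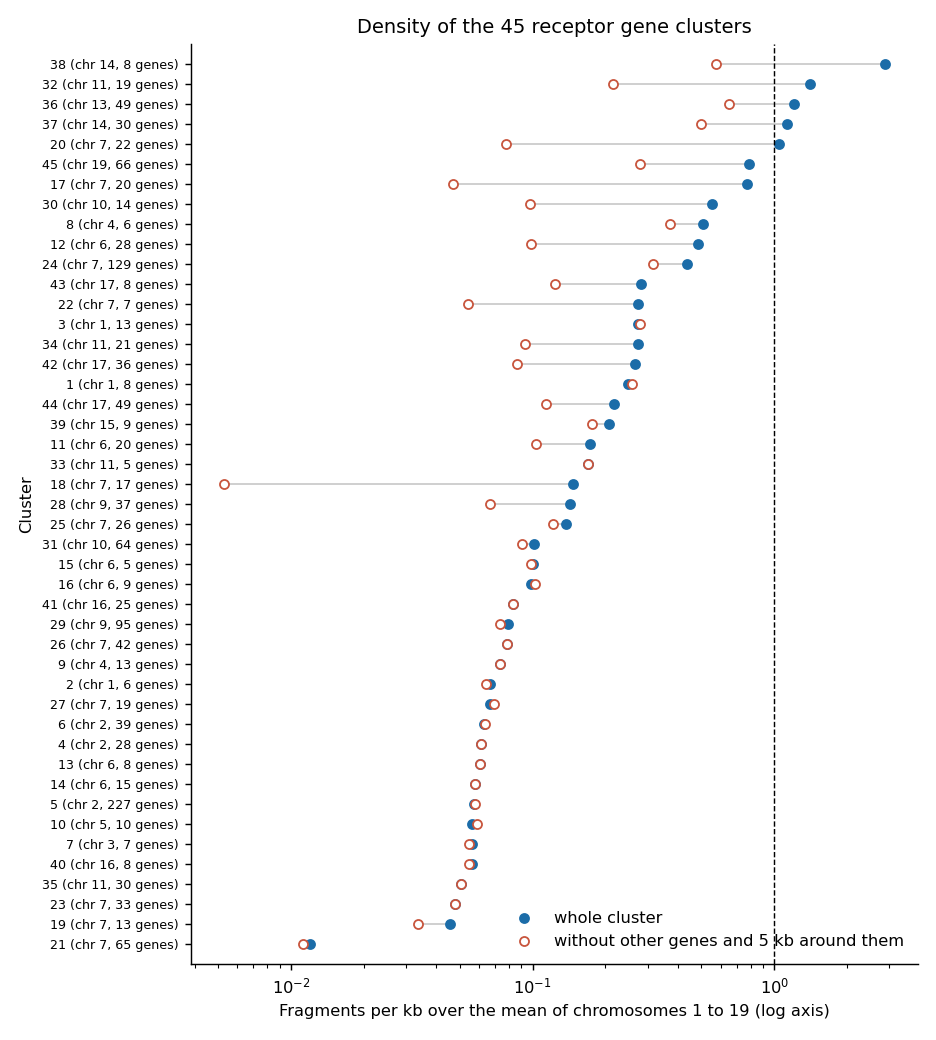
Fragments per kb over the autosomal mean (x axis, log scale) for each of 45 clusters (y axis, number, chromosome and number of receptor genes), whole (filled) and without other genes and 5 kb around them (open). Only 5 whole clusters pass the mean, marked by the dashed line, and 29 fall under 0.1 of it once other genes are left out.

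In bins of 1 kb, 460 of 54477 bins inside clusters were open (0.844%), against 3.20% of all autosomal bins. These 460 bins held 69.6% of the cluster fragments that fell in whole bins, close to the 71.02% that open bins held over all autosomal bins. Of them, 314 were in or within 5 kb of another protein-coding gene, 4 of the rest were within 1 kb of a receptor gene start, and 142 were neither. In 16 of the 45 clusters no bin was open. The 10 highest bins each had another protein-coding start within 779 bp of their center: those of *Zfp78* (4475 fragments), *Ppp2r1a* (4262), *Osbp* (4235), *Hnrnpc* (3984), *Zfp91* (3171), *Mgat1* (3142), *Rab2b* (2770), *Ccnb1ip1* (2581), *Pnp* (2443) and *Ilvbl* (2338). The nearest receptor gene starts to them were 25787 to 142934 bp away.

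Cluster 24 on chromosome 7 (chr7:102476579-105369355, 129 *Olfr* genes) held 3 of the 5 open receptor genes and 39 open bins. It surrounds the beta-globin genes and arrays of *Trim* genes, and stood at 0.437 of the mean (0.431 to 0.443), or 0.314 without other genes. Its open bins included the starts of *Trim21*, *Trim68*, *Trim6*, *Trim34a*, *Trim12a*, *Trim12c*, *Trim30a*, *Trim30b* and *Trim30d*, genes of the TRIM family with roles in antiviral defense. The globin genes *Hbb-bt* (26 fragments), *Hbb-bs* (13), *Hbb-bh2* (8), *Hbb-bh1* (7) and *Hbb-y* (6) were at or below the mean, although the window of *Hbb-bt* was 60.2% and that of *Hbb-bs* 66.8% unique. The globin genes and 50 kb upstream stood at 0.674 of the mean. A group of 5 open bins between 102506001 and 102517000, with up to 788 fragments, lay 48985 bp or more from the start of *Trim21* and had *Olfr545* as its nearest receptor gene. These bins were looked at after their values were seen.

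Fragments in the clusters without other genes, a set that still holds some open bins, were longer than the autosomal median. Fragments shorter than the DNA wrapped around 1 nucleosome made up 32.9% (32.6 to 33.2) in clusters without other genes, 45.6% over all autosomes and 57.02% at the starts of other genes. Fragments between 1 and 2 times that length made up 38.2%, 32.3% and 26.2%. The ratio of the longer to the shorter class, the nucleosome signal, was 1.16, 0.708 and 0.460, and median lengths were 194, 162 and 113 bp. The number of read pairs per fragment was alike, at 4.48, 4.50 and 4.60.

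The last comparison asked whether a cell with fewer fragments in peaks had more of them in receptor clusters. The share in peaks is the number of fragments in the peaks called by the authors over all fragments of the cell. Peaks take most fragments of these cells, with a median of 70.6% and a range from 19.2% to 79.9%. Every cell had at least 21 cluster fragments (median 82), and the median cell had 0.736% of its autosomal fragments in clusters. The spread of the counts around a constant share was 2.64 times that of Poisson counts. Spearman's rho of cluster share with share in peaks was −0.0985 and Pearson's r −0.375 over 3108 cells, which share 1 library. Fragments in peaks and in clusters also share their total, and rho of share in peaks with the number of fragments was −0.425.

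Cells were then sorted by share in peaks into 4 groups of 777. The lowest group had a median of 67.02% in peaks and 0.797% of fragments in clusters (0.791 to 0.802). Both middle groups had 0.733%, and the highest group had 0.735% (0.729 to 0.741) at a median of 73.8% in peaks. The lowest group thus had 1.08 times the share of the highest (1.07 to 1.10). Of fragments outside peaks, clusters took 2.10% in the lowest group and 2.78% in the highest, a ratio of 0.756.

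**Figure D4:**
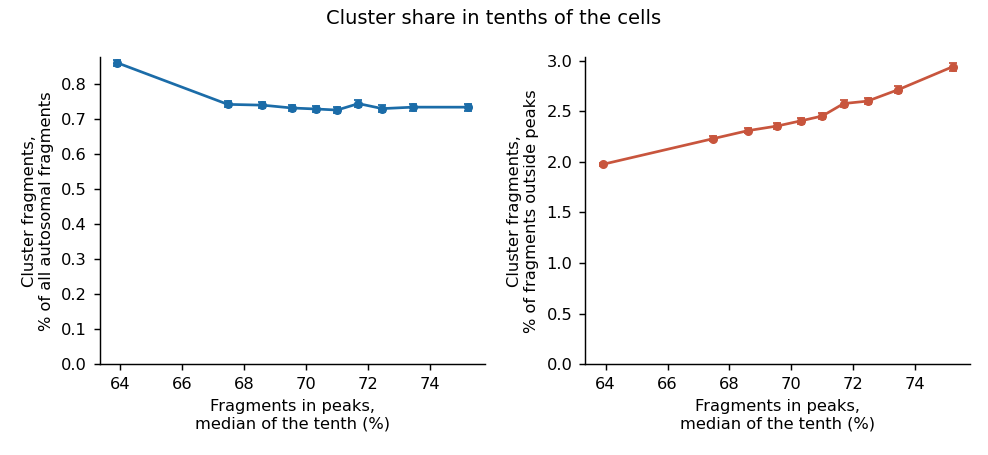
Cluster fragments as a percentage of all autosomal fragments (left) and of fragments outside peaks (right) in 10 groups of 310 or 311 cells, by the median percentage of fragments in peaks (x axis). Bars are exact 95% intervals. On the left the lowest group stands at 0.861% and the others between 0.726% and 0.744%, while on the right the share climbs from 1.98% to 2.94%.

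A small set of cells carried most of the difference in whole clusters. In 87 cells under 60% in peaks, which held 5.26% of all fragments, the cluster share was 1.04% (1.02 to 1.05). The cell with the most fragments, 194399, had 40.4% in peaks and 1.34% in clusters. Without the 87 cells, a choice made after the data were seen, the ratio between lowest and highest groups was 1.02 (1.01 to 1.03) and rho −0.0453. Barcodes not called as cells had 40.8% of fragments in peaks and 1.08% in clusters. What these cells and barcodes are was not tested.

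Regions outside peaks take a larger share in the lowest group by the way the cells were sorted, and all fragments outside peaks together had a ratio of 1.43. The ratios of sparse regions are to be read beside that value. Without other genes and 5 kb around them, clusters took 0.301% of fragments in the lowest group and 0.194% in the highest, 1.55 times (1.52 to 1.58), and rho was −0.306. Taken as a share of fragments outside peaks, the ratio was 1.08. At the starts of the 1452 receptor genes that were not open, 1698 fragments were in the lowest group and 450 in the highest, a ratio of shares of 2.46 (2.21 to 2.73). Without the 87 cells the ratios of 1.55 and 2.46 became 1.23 (1.21 to 1.26) and 1.73 (1.55 to 1.93). The values of 1.43 and 1.08 include these cells and were not taken without them. The ratios of 1.23 and 1.73 thus have no matching value to be read beside. Over whole gene records with 1 kb around them, the ratio was 1.61 (1.55 to 1.68) for *Olfr*, 1.44 (1.30 to 1.59) for *Vmn1r* and 2.80 (2.51 to 3.13) for *Vmn2r* genes. The *Vmn1r* value rests on the open start that *Vmn1r4* shares with *Nt5c3*, since without that window the ratio was 2.44 (2.12 to 2.82), with an interval that overlaps that of *Vmn2r*. Without the 4 open windows the *Olfr* ratio was 1.68 (1.62 to 1.76). These exclusions were chosen after the data were seen.

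For the 5 open receptor starts, picked for a high count, the same sorting can work in the other direction, so their ratios are given as values only. Whether these windows lie in called peaks was not checked. *Vmn1r4* had 352 fragments in the lowest and 335 in the highest group, a ratio of shares of 0.684 (0.587 to 0.797), and *Olfr646* had 200 and 166, a ratio of 0.784 (0.635 to 0.969). For *Olfr658* (77 and 53 fragments), *Olfr552* (74 and 46) and *Olfr433* (37 and 32) the intervals included 1. The starts of other protein-coding genes had a ratio of 0.839 (0.838 to 0.840), and the flanks 0.951.

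**Figure D5:**
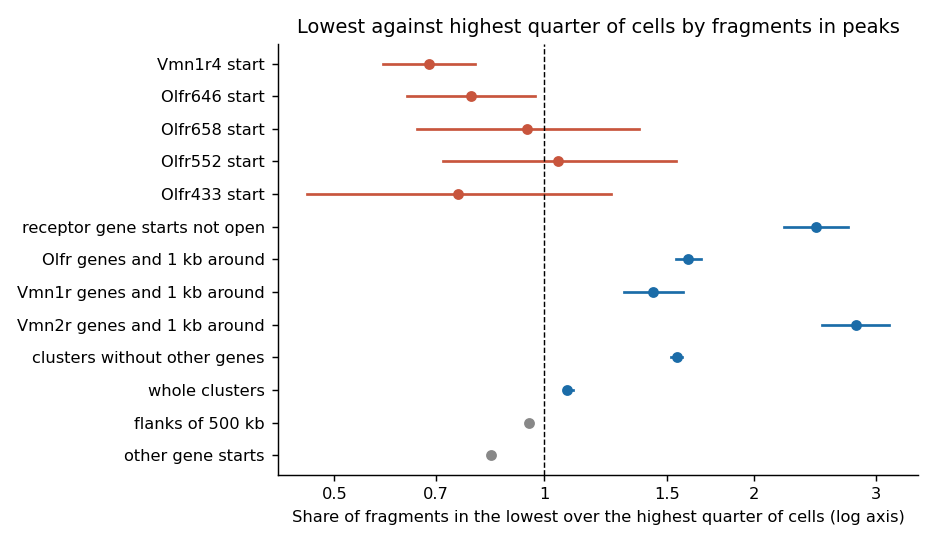
Share of fragments in the lowest over that in the highest group of cells by share in peaks (x axis, log scale) for the regions named on the y axis, with exact 95% intervals as lines. The 1452 receptor starts that were not open stand at 2.46 and the 5 open ones (top) between 0.684 and 1.05. Choosing windows by count and sorting cells by share in peaks favor this order.

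The ratio was also taken for each cluster, where the sorting acts in the same way. The share was over 1.2 times higher in the lowest than in the highest group for 32 of 45 clusters, against 35.1% of the autosomal bins of 1 Mb. The median cluster had a ratio of 1.83 (range 0.881 to 3.66), and the median 1-Mb bin 1.07. Cluster 13, with 8 *Vmn1r* genes, was highest at 3.66 (2.36 to 5.91), and cluster 35 followed at 3.45 (2.71 to 4.45). The large cluster 5 stood at 2.74 (2.50 to 3.02). Cluster 17, with 20 genes of the 3 families, was lowest at 0.881, and the dense clusters 38, 32, 36, 37 and 20 stood at 0.910, 0.93, 0.940, 0.933 and 0.986. Of these 5, the interval included 1 for cluster 20 (0.951 to 1.02). Over the 45 clusters, rho of density with this ratio was −0.885, a description of regions read from the same cells.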

How the data were processed

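The authors mapped the reads with Cell Ranger ARC 2.0.2 to mm10 and deposited unique fragments with the count of read pairs behind each, and counts per barcode. Values are not normalized. Read pairs of low mapping quality, 7.18% in the cells used, are not among the fragments, which lowers counts in repeated sequence. RNA levels were not analysed here, and the antibody tag counts were not used here.

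Fragments were assigned by their midpoint. Genes came from GENCODE vM21, and densities were divided by the mean over bases other than N of chromosomes 1 to 19. Bases were called unique from 50-mers of GRCm38. Sequences were read from that genome. Cells had more than 3000 fragments in peaks, and doublets were kept. Intervals are exact Poisson, binomial or conditional intervals at 95%. With 1 preparation, no test was made. Motifs were searched in 300 bases.

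Receptor genes, lists, thresholds and named genes were chosen with earlier results of these data known. Named were the 15 receptor genes with the most fragments, the 5 densest and 5 sparsest clusters, the 10 highest bins, 10 receptors known outside the nose, and the pathway and marker lists. Some genes of these lists are not reported here. Others are said in the text to have been looked at later.

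Counting, intervals and motif search were tested on simulated data. Python 3.11.15, numpy 2.4.6, scipy 1.17.1, pandas 2.3.3, numba 0.67.0 and matplotlib 3.10.9 were used.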

Additional observations from a re-analysis of the deposited data

How the results depend on the processing

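Counts of closed receptor starts under the alternatives tried ran from 1313 in barcodes not called as cells to 1447 with at least 2 read pairs a fragment. Barcodes not called held 3410939 autosomal fragments against 36439576 in the cells used, so their count says little about closure. Per unique base, only windows with at least 500 unique bases were counted. Depth also limits single windows, since 1 fragment is 0.0329 of the mean. The number of open starts was 3 at 8 times the mean, 9 over all transcript starts, 2 at coding starts and 3 in barcodes not called as cells, where the median window was 0. The shares over all protein-coding genes at 8 times the mean and in these barcodes were not counted. The median window was 0.0599 of the mean with every overlapped region counted, 0.0636 in all called cells and 0.0658 with windows of 500 bp either side. These lie within the counting interval of the main value, 0.000832 to 0.183. Density against the autosomal mean and against the flanks was 0.332 and 0.192 in all called cells, 0.475 and 0.326 in barcodes not called, 0.406 and 0.226 per unique base, 0.163 and 0.0957 with cluster gaps up to 200 kb, 0.379 and 0.206 with gaps up to 1 Mb, and 0.121 and 0.0698 without other genes.

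The rank correlation of cluster share with share in peaks was −0.248 at gaps of 200 kb, −0.306 without other genes, −0.0533 against the share at gene starts and −0.0453 without cells under 60% in peaks. The ratio of cluster shares between lowest and highest groups was 1.35 at 200 kb, 1.07 at 1 Mb, 1.55 without other genes, 1.07 after thinning to 3000 fragments, 1.07 by share at gene starts, 1.07 without the cell with the most fragments and 1.02 without cells under 60%. Of fragments outside peaks it was 0.747 in all called cells, 0.939 at 200 kb, 0.746 at 1 Mb and 0.791 without cells under 60%. It reversed to 1.08 without other genes, a value that includes the cells under 60%. The cause was not tested, and settings that leave out single cells and the coding start were added after the data were seen. No paired analysis was possible because there was 1 ATAC library and no test.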
